A study of Mus musculus with 21 samples.

Results

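miR-143 and miR-145a are microRNAs of smooth muscle, and each is made as a hairpin whose arms, named 5p and 3p, can both persist as mature microRNAs. All 4 arms (miR-143-3p, miR-143-5p, miR-145a-5p and miR-145a-3p) were taken by name from the count table, among 1903 named microRNAs. Of these, 832 were detected, and the 4 arms were among the 561 that were abundant enough to be tested. The 21 libraries, 1 per mouse, came from left ventricular myocardium of C57BL/6J mice. Surgery was either a sham operation (Sham, 5 mice) or transverse aortic constriction (TAC), followed by no drug (TAC, 5 mice), by sildenafil, which inhibits PDE5A (TAC+PDE5A-I, 5 mice), or by PF-04449613, which inhibits PDE9A (TAC+PDE9A-I, 6 mice). Sham mice received no drug. TAC narrows the aorta and overloads the left ventricle with pressure. PDE5A and PDE9A are enzymes that degrade cyclic GMP, a second messenger that relaxes vascular smooth muscle. Each drug was given for 4 weeks from 1 week after surgery. Doses, the age of the mice and the use of vehicle in the controls are not stated in the labels.

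The miR-143 and miR-145 hairpins are cut from a shared primary transcript. Serum response factor with its coactivator myocardin drives that transcript in vascular smooth muscle, where the microRNAs favour the contractile state over the proliferative state. Known targets include the transcription factors Klf4 and Elk1. Usually 1 arm of a hairpin is retained in Argonaute as the guide and the other, the passenger, is degraded. miR-143-3p and miR-145a-5p are generally treated as the guides of the pair. The tissue was a whole ventricular wall, in which smooth muscle is a minor part, so fewer smooth muscle cells and less of a microRNA per cell cannot be told apart.

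Library depth differed between the groups. Total counts of named microRNAs were 3766517 to 7490436 in Sham and 5373960 to 8497792 in TAC, against 1205417 to 3969716 in TAC+PDE5A-I, where replicates 3, 4 and 5 lay under 2000000 counts. In TAC+PDE9A-I the total was 1546318 for replicate 5 and 4785164 to 7532591 for the rest. No TAC+PDE5A-I library reached the depth of the shallowest TAC library, so sildenafil treatment and low depth cannot be told apart in that comparison. Calls that rest on the shallow libraries are therefore given with all libraries and also over the 17 libraries of at least 2000000 counts, an alternative chosen after seeing the data, in which TAC+PDE5A-I keeps 2 libraries and 660 microRNAs could be tested. The ear tags of the mice fall into ranges (100s, 500s and 600s) that are spread unevenly: Sham holds 3 mice of the 100s and 2 of the 600s, TAC 2, 1 and 2, TAC+PDE5A-I 2 of the 500s and 3 of the 600s, and TAC+PDE9A-I 1, 4 and 1. The labels do not say what a range stands for. The cardiomyocyte markers miR-208a-3p, miR-499-5p, miR-1a-3p and miR-133a-3p were counted in every library, with a summed level of 72314 to 268963 CPM, the unit defined with the levels that follow.

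The 4 arms differed widely in abundance. Levels are read counts scaled to a common library size by the trimmed mean of M values (TMM) and given as CPM, the usual counts-per-total unit of sequencing. Because each read stands for a whole mature arm, and mature arms are of nearly the same length, no length scaling was applied. In Sham, miR-143-3p averaged 86912 ± 18476 CPM (SD, n = 5) and its partner miR-143-5p 40.2 ± 4.96 CPM. The arms of miR-145a were close to each other in Sham, at 544 ± 111 CPM for miR-145a-5p and 490 ± 78.4 CPM for miR-145a-3p. miR-143-3p alone took 7.78% ± 0.916 of all microRNA counts in Sham and ranked 4 among microRNAs in each of the 5 libraries.

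miR-143-3p, the guide arm of miR-143, was lower after sildenafil than in untreated TAC or Sham ventricles. Across Sham replicates 1 to 5 it stood at 118157, 74031, 87959, 73098 and 81313 CPM. In TAC the values were 143118, 72413, 69543, 97758 and 87424 CPM. These groups overlapped. In TAC+PDE5A-I the 5 libraries gave 30950, 42423, 7740, 5554 and 4153 CPM. Every one lay below all Sham and all TAC libraries, and replicates 3, 4 and 5 lay far below replicates 1 and 2. In TAC+PDE9A-I the lowest level was 10912 CPM, in the shallow replicate 5, and the other libraries had 88438, 99808, 58839, 86743 and 86367 CPM, within or just below the range of TAC. The share of counts was 9.32% ± 2.12 in TAC, 1.95% ± 1.97 in TAC+PDE5A-I and 7.50% ± 3.36 (SD, n = 6) in TAC+PDE9A-I, with ranks of 2 to 5, 6 to 22 and 2 to 14.

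miR-143-5p, the passenger arm of the same hairpin, stayed in a narrow band. It measured 47.8, 37.2, 42.6, 37.5 and 35.8 CPM in Sham and 29.6, 36.7, 30.4, 45.9 and 49.5 CPM in TAC. The TAC+PDE5A-I libraries had 39.5, 38.9, 36.2, 49.9 and 34.3 CPM, and the TAC+PDE9A-I libraries 45.4, 45.5, 40.9, 41.6, 46.2 and 49.2 CPM. All 4 groups overlapped, and the 4 libraries in which miR-143-3p was lowest had 34.3 to 49.9 CPM of this arm, against 29.6 to 49.5 CPM in TAC. In the shallow TAC+PDE5A-I replicates 3, 4 and 5 it rested on 50, 74 and 46 counts.

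miR-145a-5p, the arm usually taken as the guide of miR-145a, was highest after sildenafil. Sham libraries had 656, 607, 562, 364 and 530 CPM, and TAC libraries had 266, 609, 522, 579 and 683 CPM. With sildenafil the levels were 821, 759, 1074, 893 and 677 CPM. All lay above every Sham library, and only the lowest of them, at 677 CPM, overlapped TAC. With PF-04449613 they were 736, 522, 584, 716, 669 and 512 CPM and overlapped every other group.

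miR-145a-3p, the opposite arm of miR-145a, was the arm with the greatest fall after sildenafil. Sham libraries had 615, 400, 488, 460 and 489 CPM, and TAC libraries had 249, 337, 291, 362 and 416 CPM, with overlap only through the highest TAC and the lowest Sham library. The TAC+PDE5A-I libraries had 91.0, 152, 14.5, 6.07 and 8.95 CPM, all below every TAC library. Replicates 3, 4 and 5 of that group held 20, 9 and 12 counts, with exact 95% Poisson intervals of 12.22 to 30.89, 4.115 to 17.08 and 6.201 to 20.96 counts. The TAC+PDE9A-I libraries had 375, 540, 276, 383, 23.7 and 521 CPM, the low value again in replicate 5, with 38 counts (26.89 to 52.16). The reads carry no molecular identifiers, so these intervals cover counting error only.

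**Figure D1:**
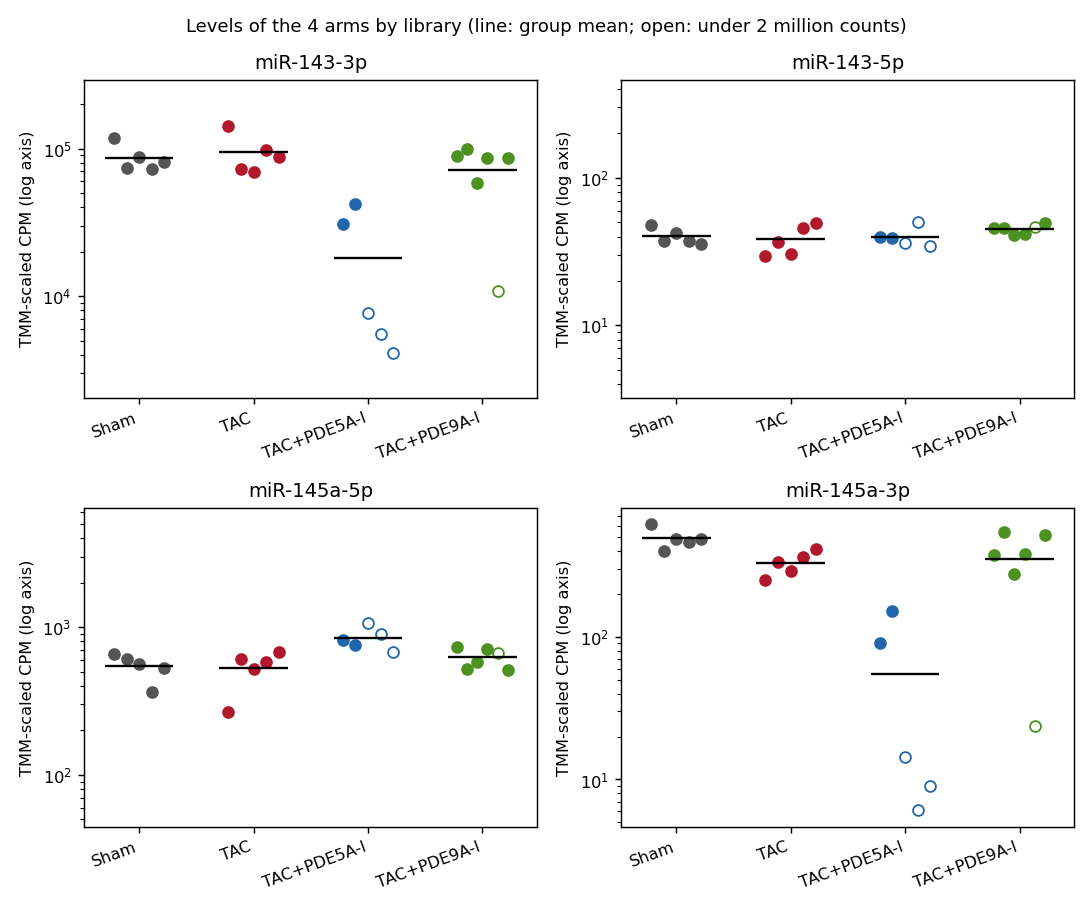
Level of each arm in the 21 libraries, in TMM-scaled CPM on a log axis, by group. Points are mice, open points are libraries under 2000000 counts and bars are group means. miR-143-3p and miR-145a-3p are low in TAC+PDE5A-I and in 1 TAC+PDE9A-I library, while miR-143-5p spans 29.6 to 49.9 CPM in all groups.

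Ordered by group mean, miR-143-3p was highest in TAC (94051 ± 29724 CPM), then in Sham, TAC+PDE9A-I (71851 ± 32778 CPM) and TAC+PDE5A-I (18164 ± 17436 CPM). Neighbours in that order overlapped in range. For miR-143-5p the order was TAC+PDE9A-I (44.8 ± 3.10 CPM), Sham, TAC+PDE5A-I (39.8 ± 6.03 CPM) and TAC (38.4 ± 9.0 CPM), and neighbours also overlapped. The order for miR-145a-5p was TAC+PDE5A-I (845 ± 151 CPM), TAC+PDE9A-I (623 ± 97.4 CPM), Sham and TAC (532 ± 160 CPM), again with overlapping neighbours. For miR-145a-3p it was Sham, TAC+PDE9A-I (353 ± 189 CPM), TAC (331 ± 64.4 CPM) and TAC+PDE5A-I (54.5 ± 64.9 CPM), and the last 2 did not overlap.

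Pressure overload alone was compared first. No arm passed the test in TAC against Sham, while 2.32% of the 561 microRNAs did (edgeR quasi-likelihood test, Benjamini-Hochberg adjusted p under 0.05 over the 561, the rule for a call throughout). The log2 fold changes were 0.11 ± 0.56 (SE) for miR-143-3p and -0.57 ± 0.69 for miR-145a-3p, with adjusted p of 0.986 and 0.896. Those of miR-143-5p and miR-145a-5p were -0.06 ± 0.17 and -0.03 ± 0.22, and both turned positive, to 0.10 and 0.15, when libraries were scaled by total counts, which moves the median of all microRNAs by 0.17. The 95% interval of miR-145a-3p ran from -2.03 to 0.89. No arm had an unadjusted p under 0.05 in edgeR over all 21 libraries, and DESeq2 called none. Over the deeper libraries, which keep every Sham and TAC library, miR-145a-3p was -0.58 ± 0.20 (edgeR adjusted p = 0.0737). It was not called there, where 11.4% of 660 microRNAs were. In a fit of these 2 groups alone miR-145a-3p passed, at -0.44 with an edgeR adjusted p of 0.0458, where 98 of 507 microRNAs tested (19.3%) were called.

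Sildenafil treatment after TAC went with a lower level of 2 arms, a higher level of 1 and no called change of the other. miR-143-3p fell by 2.37 ± 0.59 on the log2 scale against TAC (5.18-fold, edgeR adjusted p = 0.00415), and miR-145a-3p fell by 2.58 ± 0.73 (5.96-fold, adjusted p = 0.00964). miR-145a-5p rose by 0.67 ± 0.22 (1.59-fold, adjusted p = 0.0199). miR-143-5p differed by 0.05 ± 0.17 (adjusted p = 0.838), with a 95% interval of -0.30 to 0.40. Its sign turned, to -0.12, with DESeq2-style size factors, which move the median log2 change of all microRNAs from -0.31 to -0.46. In this comparison 46.3% of the 561 microRNAs were called, 24.8% lower and 21.6% higher, so 3 of 4 arms called is to be read against a background in which calls are common. The groups did not overlap for miR-143-3p and miR-145a-3p, as was the case for 33.9% of the 561.

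The depth of the TAC+PDE5A-I libraries moved with these results. Within that group, miR-143-3p averaged 36687 CPM in the 2 libraries of at least 2000000 counts and 5815 CPM in the other 3, and miR-145a-3p averaged 121.5 and 9.84 CPM. Over the 17 deeper libraries miR-143-3p fell by 1.34 ± 0.29 (2.53-fold, edgeR adjusted p = 0.00390) and miR-145a-3p by 1.43 ± 0.29 (2.69-fold, adjusted p = 0.00248), both smaller than with all libraries and both still called, where 18.5% of 660 microRNAs were. The split by depth within the group is also a split by ear tag, the 3 shallow libraries being those of the 600s. For miR-143-3p and miR-145a-3p no TAC+PDE5A-I library overlapped Sham or TAC. The order within each ear tag range was therefore fixed in advance and adds no further test. Without TAC+PDE5A-I replicate 2 the log2 changes were -3.15 and -3.59. The part of depth in what remains was not tested.

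The call of miR-145a-5p against TAC depended on the fit. It was not called over the 17 deeper libraries (0.58 ± 0.28, edgeR adjusted p = 0.163), with the 2 groups alone (0.69, adjusted p = 0.0525), with DESeq2-style size factors in edgeR (0.48, adjusted p = 0.0558) or without the filter on low counts (0.43, adjusted p = 0.166). Nor was it called without Sham replicate 5, TAC replicate 3, any 1 of the 5 TAC+PDE5A-I libraries, or any 1 of TAC+PDE9A-I replicates 2 to 6. The log2 change over all such omissions was 0.33 to 0.77.

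Against Sham, the sildenafil group showed the same 3 calls, with a background of 42.6% of microRNAs called, 23.5% lower and 19.1% higher. This comparison shares its TAC+PDE5A-I libraries with the one before. miR-143-3p was lower by a log2 change of -2.26 ± 0.59 (4.78-fold, edgeR adjusted p = 0.00512) and miR-145a-3p by -3.14 ± 0.75 (8.84-fold, adjusted p = 0.00334). miR-145a-5p was higher by 0.64 ± 0.22 (1.55-fold, adjusted p = 0.0276), and miR-143-5p differed by -0.01 ± 0.17 (adjusted p = 0.950), a sign that turned to 0.20 with scaling by total counts, which moves the median of all microRNAs by 0.22. For all arms but miR-143-5p the groups did not overlap, as for 32.8% of the 561. Over the 17 deeper libraries the changes were -1.24 ± 0.28 for miR-143-3p and -2.01 ± 0.30 for miR-145a-3p, both called, and 0.54 for miR-145a-5p, not called (adjusted p = 0.208), where 18.2% of microRNAs were called. The miR-145a-5p call was also lost without Sham replicate 4 or 5, TAC replicate 3 or any 1 TAC+PDE5A-I library (0.36 to 0.71 over all omissions). It was lost as well with DESeq2-style size factors, DESeq2, no filter on low counts, the 2 groups alone, the ear tag range as a covariate or the replicate number as a block, with log2 changes of 0.44 to 0.70 and adjusted p of 0.0510 to 0.0823. Without TAC+PDE5A-I replicate 2 the changes were -2.85 for miR-143-3p and -3.97 for miR-145a-3p.

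PF-04449613 went with no called change of any arm. Against TAC the log2 changes were -0.39 ± 0.53 for miR-143-3p, 0.22 ± 0.16 for miR-143-5p, 0.23 ± 0.21 for miR-145a-5p and 0.10 ± 0.66 for miR-145a-3p, all with an edgeR adjusted p of 0.991. In this comparison 0% of the 561 microRNAs were called by edgeR, 16 had an unadjusted p under 0.05 and DESeq2 called 1. The 95% interval of miR-143-3p, -1.52 to 0.74, still held a fall larger than 2-fold. Against Sham the changes were -0.27, 0.16, 0.20 and -0.47 in the same order, with adjusted p of 0.949 to 0.970, where 1.96% of microRNAs were called.

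The drugs were given over the same weeks, and since both were compared with the same TAC mice, the contrast between them also compares their differences from TAC. TAC+PDE5A-I libraries held at most 3969716 counts, and TAC+PDE9A-I libraries other than replicate 5 at least 4785164. Drug and depth therefore cannot be told apart here either. miR-143-3p was lower with sildenafil than with PF-04449613 by a log2 change of -1.98 ± 0.57 (edgeR adjusted p = 0.0141, 95% interval -3.18 to -0.79), and miR-145a-3p by -2.67 ± 0.72 (adjusted p = 0.0132, interval -4.19 to -1.15). For miR-143-5p the difference was -0.17 (adjusted p = 0.420, interval -0.51 to 0.17) and for miR-145a-5p it was 0.44 (adjusted p = 0.107, interval -0.01 to 0.88), neither of them called. The background was 34.8% of microRNAs called, 19.6% lower and 15.2% higher, a split of 110 to 85 that became 126 to 50 with DESeq2-style size factors. Ranges overlapped for every arm, where 1.96% of microRNAs did not overlap, for miR-143-3p and miR-145a-3p through TAC+PDE9A-I replicate 5, the 1 shallow library of that group. Fitted with these 2 groups alone, neither arm was called (-2.09 and -2.76, both adjusted p = 0.105). Over the deeper libraries both were called, at -1.21 and -1.79, where 15.8% of microRNAs were. The miR-143-3p call was lost without TAC+PDE5A-I replicate 3 or 4, and its log2 change over all omissions was -2.69 to -1.85, the lowest without TAC+PDE5A-I replicate 2. That omission gave -3.60 for miR-145a-3p.

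**Figure D2:**
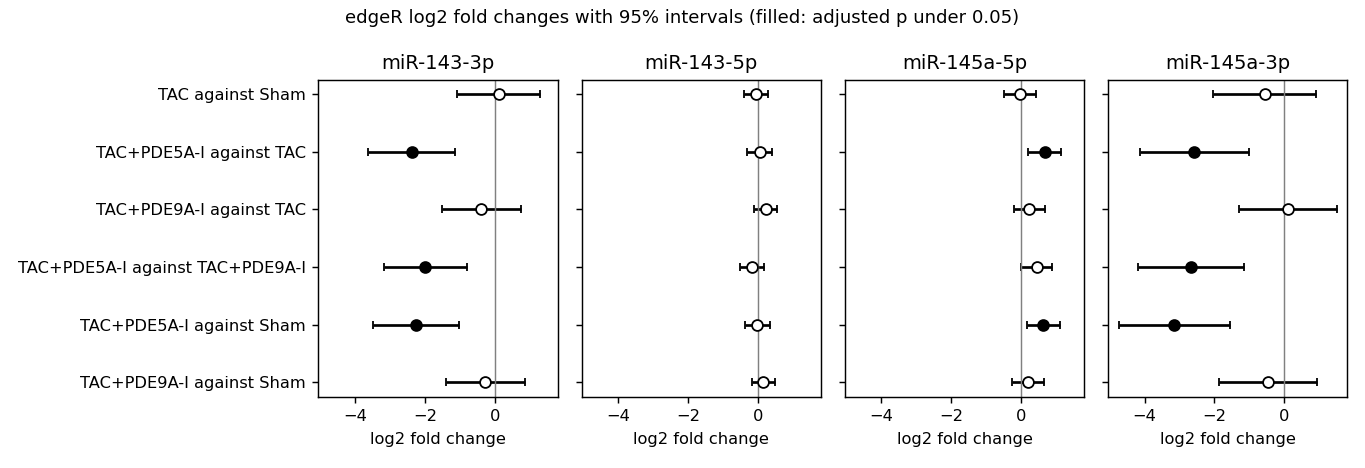
Log2 fold change of each arm in the 6 comparisons from the edgeR fit of all 21 libraries, with bars for 95% intervals and filled points for adjusted p under 0.05. In TAC+PDE5A-I against TAC, miR-143-3p (-2.37) and miR-145a-3p (-2.58) lie well below 0, miR-145a-5p (0.67) above it, and miR-143-5p (0.05) beside it.

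The arms were next compared within each hairpin. The ratio of 3p to 5p counts in 1 library does not depend on how libraries are scaled. How many other hairpins had ratios without overlap between groups was not counted. For levels, TAC+PDE5A-I did not overlap TAC in 33.9% of the 561 microRNAs and Sham in 32.8%. miR-143 was strongly biased to its 3p arm. The 3p:5p ratio was 1940 to 2469 in Sham, with a geometric mean of 2135, and 1763 to 4811 in TAC, with a geometric mean of 2409. In TAC+PDE5A-I the 5 libraries gave 780, 1087, 211, 111 and 120, all below every Sham and TAC library. With PF-04449613 they gave 1944, 2190, 1436, 2083, 234 and 1751, where only replicate 5 was far from TAC.

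miR-145a was nearly balanced in untreated mice and became biased to its 5p arm with sildenafil. Its 3p:5p ratio was 0.659 to 1.27 in Sham, with a geometric mean of 0.911, and 0.554 to 0.936 in TAC, with a geometric mean of 0.643. The sildenafil libraries gave 0.111, 0.200, 0.0138, 0.00717 and 0.0138. None came near the lowest TAC library. The PF-04449613 libraries gave 0.510, 1.03, 0.472, 0.535, 0.0359 and 1.02, and all but replicate 5 lay near the range of Sham and TAC.

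**Figure D3:**
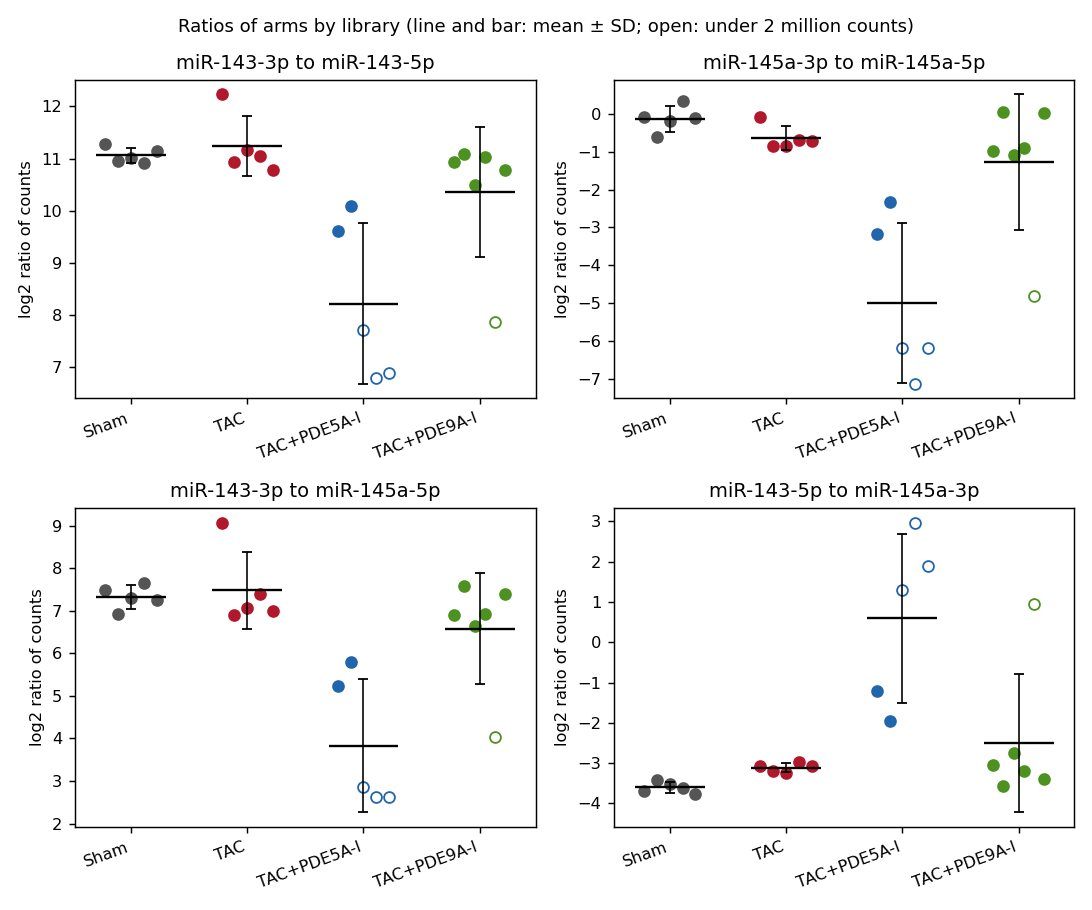
Log2 ratios of counts between arms in each library, by group: 3p to 5p within miR-143 and within miR-145a, and 2 ratios across the hairpins. Points are mice, open points are libraries under 2000000 counts and lines with bars are means ± SD. Sham libraries cluster tightly for miR-143 (ratios of 1940 to 2469) and less so for miR-145a (0.659 to 1.27). TAC+PDE5A-I libraries lie apart from TAC in all 4 panels.

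Log2 arm ratios were tested with limma over the 161 hairpins whose arms both passed the filter on low counts. Against TAC, sildenafil went with a change of the log2 miR-143 ratio by -3.01 ± 0.65 (8.07-fold lower, limma adjusted p = 0.00276) and of the miR-145a ratio by -4.36 ± 0.88 (20.5-fold lower, adjusted p = 0.00252). Of the 161 hairpins 41% were called in this comparison, 19.3% with a lower ratio, and the median absolute shift was 1.17. A larger shift in either direction was seen in 6 hairpins for miR-145a and in 19 for miR-143. Over the deeper libraries the shifts were -1.39 ± 0.32 (adjusted p = 0.00589) and -2.11 ± 0.37 (adjusted p = 0.000688), both called, where 19.1% of 183 hairpins were. Without TAC+PDE5A-I replicate 2 the miR-145a shift was -5.03.

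Against Sham the sildenafil group differed by -2.84 ± 0.65 for miR-143 (7.15-fold, limma adjusted p = 0.00363) and -4.86 ± 0.88 for miR-145a (29.0-fold, adjusted p = 0.000733), with 37.9% of hairpins called, 18% with a lower ratio. The deeper libraries gave -1.21 and -2.61, both called, where 20.8% of hairpins were, and omission of TAC+PDE5A-I replicate 2 gave -5.53 for miR-145a. Against PF-04449613 the sildenafil group differed by -2.14 ± 0.62 for miR-143 (adjusted p = 0.0190) and -3.71 ± 0.84 for miR-145a (adjusted p = 0.0102), with 27.3% of hairpins called, 10.6% with a lower ratio. The exact permutation test of these 2 groups called neither (adjusted p of 0.0705 and 0.0519), nor did limma on the 2 groups alone (0.0953 and 0.0895). Over the deeper libraries both passed, at -1.01 and -2.17, where 19.7% of hairpins did. The miR-143 call was lost without TAC+PDE5A-I replicate 3, 4 or 5, with a shift of -2.64 to -1.78 over all omissions. The miR-145a shift was -4.38 without TAC+PDE5A-I replicate 2 and -4.42 without TAC+PDE9A-I replicate 5.

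Neither ratio was called in TAC against Sham or with PF-04449613. TAC against Sham gave 0.17 ± 0.65 for miR-143 and -0.50 ± 0.88 for miR-145a (both limma adjusted p = 0.986), PF-04449613 against TAC -0.87 ± 0.62 and -0.64 ± 0.84 (both 0.858), and PF-04449613 against Sham -0.70 and -1.15 (0.811 and 0.763). Without the shallow TAC+PDE9A-I replicate 5 the values for PF-04449613 were -0.37 for miR-143 and 0.060 for miR-145a against TAC, the latter with its sign turned, and -0.20 and -0.44 against Sham. In the first 2 of these comparisons 0% of hairpins were called by limma, with 9 and 2 at an unadjusted p under 0.05, and in the third 1.24%. By the exact permutation test the miR-145a ratio in TAC against Sham had p = 0.0397 and, adjusted, 0.0705.

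**Figure D4:**
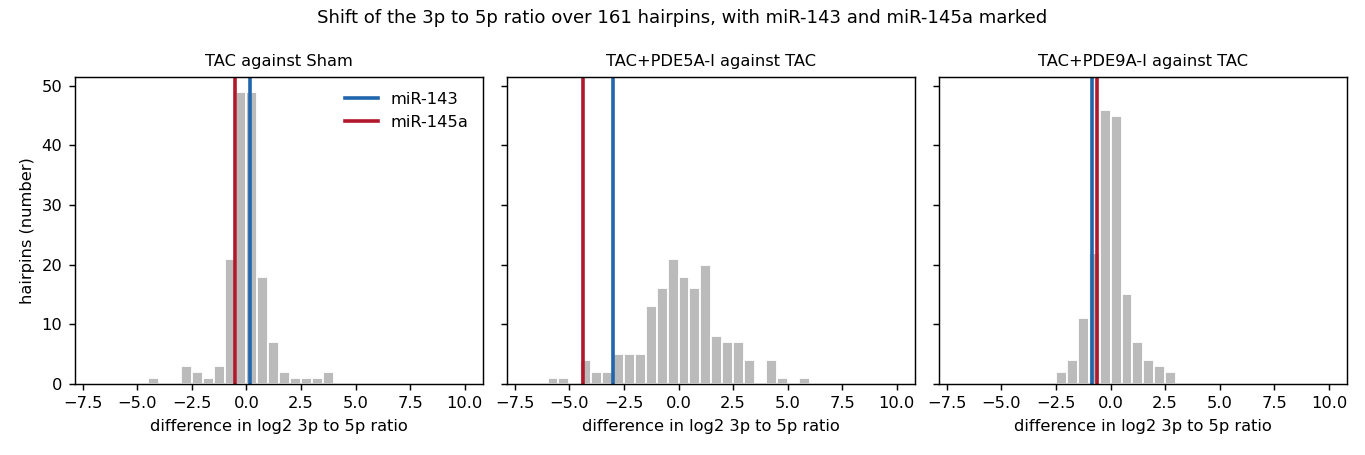
Histograms of the difference in log2 3p:5p ratio over 161 hairpins (number of hairpins per bin) for TAC and for each drug against its control, with lines at miR-143 and miR-145a. The spread is widest for TAC+PDE5A-I against TAC, where miR-143 (-3.01) and miR-145a (-4.36) lie in the lower tail.

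Arms of the 2 hairpins were also set against each other, since the hairpins come from 1 transcript. No other hairpins were set against each other in this way, so separations between groups have no background to be read against. The ratio of the usual guides, miR-143-3p to miR-145a-5p, had a geometric mean of 160 (122 to 201) in Sham, 179 (119 to 539) in TAC, 14.2 (6.13 to 55.9) in TAC+PDE5A-I and 95.7 (16.3 to 191) in TAC+PDE9A-I. All TAC+PDE5A-I libraries lay below all Sham and TAC libraries. The drop against TAC was -3.66 in log2 (12.6-fold, exact permutation test, two-sided, p = 0.00794, Benjamini-Hochberg adjusted 0.0190 over the 12 tests of such ratios), and against Sham -3.50 (adjusted 0.0190). A raw p of 0.00794 is the smallest that 252 arrangements can give. Against PF-04449613 the difference was -2.75 (exact p = 0.0216, adjusted 0.0433), a call lost without TAC+PDE5A-I replicate 3, 4 or 5 or TAC+PDE9A-I replicate 1, 2, 3, 4 or 6, with -3.26 to -2.45 over all omissions. Over the deeper libraries the 3 differences were -1.96, -1.80 and -1.57, each with an exact permutation p of 0.0476, the smallest that 21 arrangements can give, and an adjusted p of 0.0714, not called. This ratio was not called in TAC against Sham (0.16, adjusted p = 0.905 by the exact permutation test).

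The ratio of the other 2 arms, miR-143-5p to miR-145a-3p, was the 1 measure of the 4 levels and 4 ratios that was called in TAC against Sham. The tests were unlike: this one took the 2 groups alone and was adjusted over 12 tests, the levels and within-hairpin ratios used all groups and wider adjustment. In edgeR on the 2 groups alone miR-145a-3p was also called (adjusted p = 0.0458). The ratio had a geometric mean of 0.0824 (0.0734 to 0.0932) in Sham and 0.116 (0.105 to 0.127) in TAC, with no overlap. The difference was 0.49 in log2 (1.40-fold, exact permutation p = 0.00794, adjusted 0.0190), and it was 0.45 to 0.53 and called whichever library was left out. All 10 of these libraries held at least 2000000 counts, so the deeper libraries gave the same difference and exact permutation p, but the adjusted p over the 12 tests of that setting was 0.0714, not called. With sildenafil the geometric mean was 1.52 (0.256 to 7.84), above every TAC library, by 3.71 against TAC (13.1-fold) and by 4.20 against Sham (18.4-fold), both with an adjusted exact permutation p of 0.0190. Without TAC+PDE5A-I replicate 2 these were 4.35 and 4.84, without replicate 4 they were 3.12 and 3.61, and over the deeper libraries they were 1.53 and 2.02, not called (both adjusted 0.0714). PF-04449613 gave a geometric mean of 0.177 (0.0844 to 1.94) and no call, with 0.61 against TAC (adjusted 0.874) and 1.1 against Sham (adjusted 0.0877), the latter called without TAC+PDE9A-I replicate 2 (1.31, adjusted 0.0159), replicate 5 (0.41, adjusted 0.0476) or replicate 6 (1.28, adjusted 0.0476). The value against TAC turned to -0.081 without replicate 5. The difference between the drugs, 3.10, had an adjusted exact permutation p of 0.0631. It was called without TAC+PDE5A-I replicate 1 (3.55, adjusted 0.0327) or 2 (3.74, adjusted 0.0245) or TAC+PDE9A-I replicate 5 (3.79, adjusted 0.0136), was 2.51 without TAC+PDE5A-I replicate 4, and was 1.61 over the deeper libraries, not called.

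**Figure D5:**
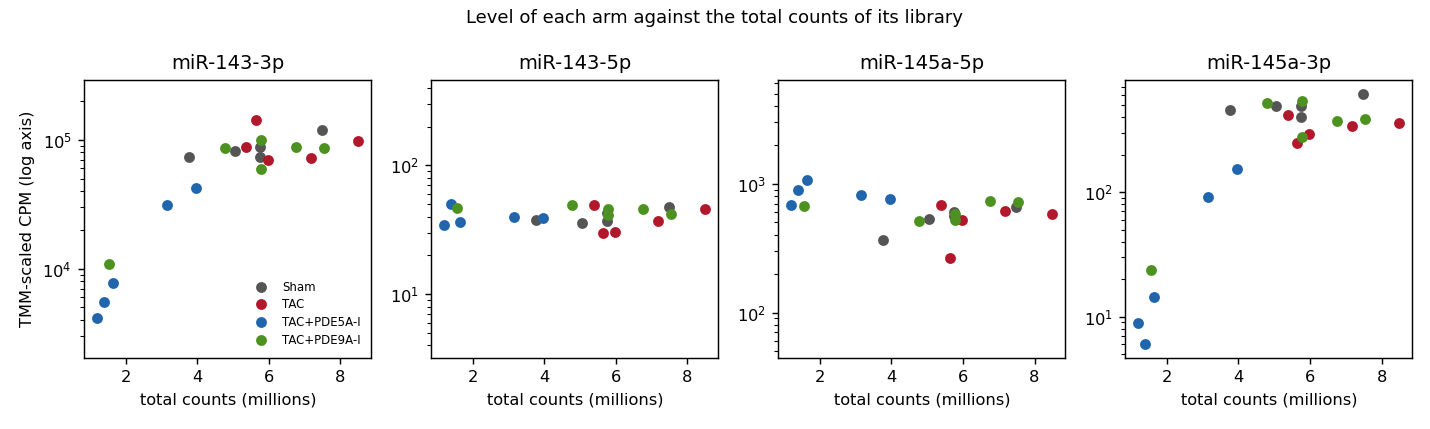
Level of each arm, in TMM-scaled CPM on a log axis, against the total count of its library on a linear axis, coloured by group. miR-143-3p and miR-145a-3p are lowest in the 4 libraries under 2000000 counts, and miR-143-5p is not, with 34.3 to 49.9 CPM there.

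Other microRNAs described in the phenotype of vascular smooth muscle, 18 in all and all tested, were counted beside the 4 arms. Among the 18 are miR-1a-3p and miR-133a-3p, which also serve here as cardiomyocyte markers. In TAC+PDE5A-I against TAC, 2 were called higher, 8 lower and 8 neither way (10 of 18, beside 46.3% of all 561, 21.6% higher and 24.8% lower), with a median log2 change of -0.50 against -0.31 for all 561. The 3 with the smallest p were miR-29b-3p, which targets collagens (-2.57, 12.7 against 77.5 CPM), miR-21a-5p, a growth-associated microRNA (-4.12, 530 against 9223 CPM), and miR-27b-3p (-1.53, 26484 against 76416 CPM). Over the deeper libraries these were -1.97, -3.12 and -0.85, all called. Of the 18 none was called higher there and 6 lower, beside 18.5% of all 660 in either direction. Against Sham 3 were higher and 5 lower (8 of 18, beside 42.6% of all), led by miR-222-3p (1.40, 508 against 193 CPM), miR-29b-3p (-2.83) and miR-221-3p (0.99, 941 against 475 CPM). miR-221-3p and miR-222-3p are given in textbook accounts as promoting smooth muscle proliferation, the opposite of the role given to miR-143 and miR-145. In untreated TAC against Sham they were 0.61 and 0.70, not called, and over the deeper libraries 0.59 and 0.68, both called. In TAC+PDE5A-I against TAC they were 0.37, not called, and 0.70, called. Over the deeper libraries that comparison gave 0.13 and 0.31, neither called. Against Sham over the deeper libraries they were 0.73 and 0.99 and miR-29b-3p was -2.24, all called. Of the 18, 3 were higher there and 3 lower, beside 18.2% of all 660 called. Between the drugs 2 were higher and 7 lower with sildenafil (9 of 18, beside 34.8% of all). They were led by miR-29b-3p (-2.38), miR-21a-5p (-3.61) and the muscle microRNA miR-1a-3p (-3.15). Over the deeper libraries these 3 were -2.03, -2.90 and -2.20, with none of the 18 higher and 5 lower, beside 15.8% of all 660 called. By edgeR none of the 18 was called in TAC against Sham (median 0.18 against -0.08 for all). There 6 had an unadjusted p under 0.05, as did 88 of all 561, and DESeq2 called 3, beside 54 of all. Over the deeper libraries edgeR called 7 higher, beside 11.4% of all 660 in either direction. With PF-04449613 against TAC none was called either (median -0.11 against -0.04), with 0 at that unadjusted p and 0 by DESeq2. Against Sham edgeR again called none, with 3 at that unadjusted p (63 of all) and 3 called by DESeq2 (35 of all). Over the deeper libraries edgeR called 3 higher, beside 5.61% of all 660 in either direction.

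Markers of other cells of the ventricle moved between the same groups. The summed level of the endothelial markers miR-126a-3p and miR-126a-5p was 32704 to 49231 CPM in Sham, 25783 to 42974 in TAC, 999 to 15678 in TAC+PDE5A-I and 3137 to 47697 in TAC+PDE9A-I. The 3 erythroid markers summed to 472 to 1450, 445 to 1211, 23.1 to 417 and 62.5 to 1457 CPM in the same order. For the 4 stromal markers the ranges were 2152 to 2644, 5490 to 8299, 1400 to 3627 and 1094 to 13609 CPM. The cardiomyocyte markers summed to 139528 to 177857, 77729 to 144054, 140623 to 268963 and 72314 to 195339 CPM, and the 5 leukocyte markers to 2223 to 2674, 1397 to 2523, 2180 to 3150 and 1772 to 3062 CPM. No marker was at 0 in any library but 1 leukocyte marker in TAC+PDE5A-I. The cardiomyocyte sum was mostly 1 abundant member, miR-133a-3p. The most abundant leukocyte marker was miR-150-5p, with a mean of 988 CPM in TAC beside 717 for miR-142a-3p. In TAC+PDE5A-I these means were 2368 and 84.0 CPM. Both miR-133a-3p and miR-150-5p were called higher in TAC+PDE5A-I against TAC (1.76-fold and 2.40-fold).

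Member by member, some markers of every cell type were called lower in TAC+PDE5A-I against TAC, beside 24.8% of all 561 microRNAs. They were 3 of 4 for cardiomyocytes (miR-208a-3p -3.31, miR-1a-3p -3.41, miR-499-5p -2.37) and 3 of 5 for leukocytes (miR-142a-5p -4.52, miR-142a-3p -3.08, miR-223-3p -2.37). For the endothelium 1 of 2 was (miR-126a-5p -3.28), for the stroma 2 of 4, and for erythroid cells 3 of 3 (miR-144-3p -4.84). Over the deeper libraries 2 of 4, 3 of 5, 1 of 2, 0 of 4 and 2 of 3 were called lower in the same order, and none higher. Of all 660 microRNAs tested over those libraries, 18.5% were called in either direction. There the endothelial sum was 11319 and 15640 CPM in the 2 TAC+PDE5A-I libraries against 25779 to 42065 in TAC, and the erythroid sum 232 and 416 against 445 to 1187. The part of these markers in the results on miR-143 and miR-145a was not tested.

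Each arm had its own nearest microRNAs across the 21 libraries, by Pearson r of log2 CPM among 139 microRNAs with a mean of at least 100 CPM. For miR-143-3p they were miR-192-5p (r = 0.992), miR-26b-5p (0.991) and miR-126a-5p (0.987). For miR-145a-3p they were miR-15a-5p (0.994), miR-29c-3p (0.990) and miR-30b-5p (0.989). miR-145a-5p was nearest to miR-125b-5p (0.852), miR-342-3p (0.795) and miR-125a-5p (0.760), and miR-143-5p to miR-155-5p (0.401), let-7d-5p (0.327) and miR-133a-5p (0.316). Reads of miR-125a and miR-125b can be assigned to one another, which makes them uncertain as separate values. These are descriptions over libraries that share depth and group, and over the 17 deeper libraries the nearest to miR-143-3p were miR-148a-3p (0.966), miR-26b-5p (0.931) and miR-101b-3p (0.929). Over the same 17 they were miR-29c-3p (0.964), miR-30d-3p (0.953) and miR-15a-5p (0.944) for miR-145a-3p, and miR-22-3p (0.628), miR-126a-3p (0.609) and miR-29a-3p (0.544) for miR-143-5p, while miR-145a-5p kept the same 3 (0.794 to 0.823). Among the 4 arms, miR-143-3p and miR-145a-3p, from different hairpins, ran together (r = 0.974, n = 21, and 0.756 over the 17). For arms of the same hairpin r was 0.01 for miR-143 and -0.52 for miR-145a, and over the 17 it was 0.11 and -0.25.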

How the data were processed

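The authors deposited 1 table of raw read counts per mature microRNA for 21 Illumina small RNA libraries of left ventricle, not normalised. Of its 25958 lines 24055 are blank, and the smallest value above 0 is 2. Per the submitters' processing notes the tools included Bowtie 1.1.1, DESeq 1.26.0, cutadapt 1.8 and CASAVA 1.8.4. For their roles and the genome build, nothing was given in the sources used here. Groups came from the labels, in which each library has its own ear tag, so p-values measure the spread between mice. In the edgeR and limma fits of all groups, that spread is pooled over the groups.

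From the deposited counts, levels were fitted with edgeR 4.0.16 under R 4.3.3 (filterByExpr, TMM, robust quasi-likelihood over all 4 groups, 17 residual degrees of freedom before moderation). Arm ratios, with 0.5 counts added to each arm, were tested with limma 3.58.1 (robust), and ratios across hairpins with exact permutation tests. Intervals of fold changes use the SE and 17 degrees of freedom. DESeq2 1.42.0 and other alternatives are in the closing section. The tests were tried on simulated data in which all groups had the same spread and no change was tied to depth. That trial does not cover the unequal spread of these libraries. The 4 arms were named whatever their result, with the 3 called members of smallest p from the smooth muscle list and the 3 microRNAs nearest to each arm. Members and lists were chosen with earlier results of these data known.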

Additional observations from a re-analysis of the deposited data

Results flagged for a closer look

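In TAC, replicate 1 stood apart from the other 4 libraries by Dixon's criterion in 3 ratios. Its log2 ratio of miR-143-3p to miR-143-5p was 12.23 against 10.78 to 11.16 in the others, that of miR-145a-3p to miR-145a-5p was -0.095 against -0.85 to -0.68, and that of miR-143-3p to miR-145a-5p was 9.07 against 6.89 to 7.40. In TAC+PDE9A-I, the shallow replicate 5 stood apart in all 4 ratios: 7.87 against 10.49 to 11.10, -4.80 against -1.08 to 0.05 and 4.03 against 6.65 to 7.58 for the same 3, and 0.95 against -3.57 to -2.75 for miR-143-5p to miR-145a-3p. These are 7 of 32 sets examined, and chance sets apart about 1 in 20 of independent sets. All 7 lie in TAC replicate 1 or TAC+PDE9A-I replicate 5, and the ratios share arms. The sets are thus not independent, and the count cannot be judged against that rate.

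The drug groups differed by test for 5 measures, in a contrast where drug and depth cannot be told apart. Sildenafil minus PF-04449613 was -1.98 in log2 for miR-143-3p, -2.67 for miR-145a-3p, -2.14 for the miR-143 arm ratio, -3.71 for the miR-145a arm ratio and -2.75 for miR-143-3p to miR-145a-5p.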

How the results depend on the processing

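Of 48 results (4 levels and 4 ratios in 6 comparisons) 20 were called, and 8 of these were called under every alternative: miR-143-3p, miR-145a-3p and both arm ratios for TAC+PDE5A-I against TAC and against Sham. No called result changed sign. Over libraries of at least 2000000 counts (chosen after seeing the data) the calls lost were miR-143-3p to miR-145a-5p with sildenafil against Sham (-1.80), TAC (-1.96) and PF-04449613 (-1.57), miR-143-5p to miR-145a-3p in TAC against Sham (0.49) and with sildenafil against Sham (2.02) and TAC (1.53), and miR-145a-5p against Sham (0.54) and TAC (0.58). There, PF-04449613 against TAC turned sign for miR-143-5p to miR-145a-3p (-0.081) and the miR-145a arm ratio (0.060). The 6 ratios that lost their call had an adjusted p of 0.0714. For the sildenafil ones, with 2 libraries, the raw exact p of 0.0476 was the smallest possible.

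For miR-145a-5p the sildenafil calls were also lost with RLE size factors (0.44 against Sham, 0.48 against TAC), no filter on low counts (0.59, 0.43) and the 2 groups alone (0.49, 0.69), and against Sham with DESeq2 (0.44), the ear tag range as covariate (0.70) and the replicate block (0.63). Between the drugs, the 2 groups alone lost miR-143-3p (-2.09), miR-145a-3p (-2.76), the miR-143 arm ratio (-2.14) and the miR-145a arm ratio (-3.71), the exact permutation test lost both arm ratios (-2.14, -3.71), and the ear tag range lost the miR-143 ratio (-1.79). DESeq2 newly called miR-143-5p between the drugs (-0.35), and the 2 groups alone miR-145a-3p in TAC against Sham (-0.44).

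Sign changes were in results not called. In TAC against Sham, miR-143-5p turned to 0.10 with total counts, 0.12 with no filter and 0.063 with 2 groups, and miR-145a-5p to 0.15, 0.16 and 0.10, and to 7.59e-05 with the ear tag range. miR-143-5p turned with sildenafil against Sham to 0.20 with total counts and 0.00135 with the ear tag range, and against TAC to -0.12 with RLE or DESeq2 and -0.18 with no filter. miR-145a-3p with PF-04449613 against TAC turned to -0.22 with the ear tag range and -0.39 with the replicate block. The cause was not tested for any of these.

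Leaving out each library in turn gave these ranges. In TAC against Sham they were -0.075 to 0.29 for the miR-143 arm ratio, -0.24 to 0.31 for miR-143-3p to miR-145a-5p, -0.091 to 0.38 for miR-143-3p, -0.17 to 0.18 for miR-143-5p and -0.15 to 0.15 for miR-145a-5p. Sildenafil against TAC gave -0.27 to 0.16 for miR-143-5p and 0.33 to 0.77 for miR-145a-5p, and against Sham -0.28 to 0.055 and 0.36 to 0.71. Between the drugs they were -2.64 to -1.78 for the miR-143 arm ratio, -3.26 to -2.45 for miR-143-3p to miR-145a-5p, -2.69 to -1.85 for miR-143-3p and 2.51 to 3.79 for miR-143-5p to miR-145a-3p (newly called without TAC+PDE5A-I replicate 1 or 2 or TAC+PDE9A-I replicate 5). PF-04449613 against TAC gave -0.081 to 0.82 for miR-143-5p to miR-145a-3p, -0.91 to 0.060 for the miR-145a arm ratio and -0.10 to 0.34 for miR-145a-3p, and against Sham -0.35 to 0.055 for miR-143-3p and 0.41 to 1.31 for miR-143-5p to miR-145a-3p (newly called without TAC+PDE9A-I replicate 2, 5 or 6).

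Counts of called microRNAs moved by over 1.5 times in these settings: TAC against Sham from 13 to 20 (no filter), 54 (DESeq2), 98 (2 groups), 4 (ear tag) and 75 (deeper libraries), sildenafil against Sham from 239 to 120 and against TAC from 260 to 122 (deeper libraries), between the drugs from 195 to 0 (2 groups, where 162 had an unadjusted edgeR p under 0.05), 115 (ear tag) and 104 (deeper libraries), and PF-04449613 against Sham from 11 to 30 (total counts), 35 (DESeq2), 4 (2 groups), 1 (ear tag) and 37 (deeper libraries). PF-04449613 against TAC went from 0 to 1 (DESeq2) and 2 (deeper libraries). With 1 library left out the ranges were 3 to 32, 72 to 252 between the drugs, 165 to 280 for sildenafil against TAC (165 without TAC+PDE5A-I replicate 3) and 7 to 31 for PF-04449613 against Sham.

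Libraries of different groups share replicate numbers, and 7 of 30 correlations of same-numbered deviations exceeded 0.1 (-0.208 to 0.351). Differently numbered libraries were not correlated as a reference, so pairing by number cannot be judged from these values. The replicate block ended no call other than miR-145a-5p against Sham (0.63), and with sildenafil it gave -3.24 for miR-145a-3p against TAC and -3.76 against Sham, where the ear tag range gave -3.16 and -3.81. A planned GC correction could not be run, since the sequences of the 4 arms were missing from the reference at hand. Shallow libraries limit miR-145a-3p, which rested on as few as 9 counts.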

Other observations

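miR-145b, a named relative of miR-145a in the table, was at 0 in all 21 libraries. Among hairpins whose arm ratio shifted more than that of miR-145a in TAC+PDE5A-I against TAC, the 3p:5p ratio fell for miR-208a (-5.80, limma adjusted p = 0.00221) and miR-15b (-5.0, 0.00292), and rose for miR-1b (5.64, 0.0100), miR-676 (4.77, 0.00525), miR-455 (4.45, 0.00761) and miR-351 (4.41, 0.0101). These hairpins were picked by the size of their shift. Over the libraries of at least 2000000 counts the shifts were -3.37, -2.28, 6.06, 1.60, 1.43 and 3.49 in the same order, called for miR-208a, miR-15b and miR-676 and not for the others.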
